A study of Mus musculus with 18 samples.

Results

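The plasminogen activators, their receptor and 4 serpins were followed through the differentiation of wildtype (WT) and LAP2α knockout (KO) mouse myoblasts. The 7 genes, *Plat*, *Plau*, *Plaur*, *Serpinb2*, *Serpine2*, *Serpinf1* and *Serpinh1*, were selected on their names, as 7 of the 19153 genes with values, and their changes at day 2 of differentiation were known when the list was drawn up. The levels in differentiated cells are therefore given as a description with no test for these genes. *Plat* transcripts were 6.49-fold higher at day 2 than in proliferation in WT and 6.32-fold higher in KO cells, whereas *Plaur* was 4.61-fold and 4.29-fold lower and *Serpinb2* 35.2-fold and 28.6-fold lower. On the log2 scale *Serpinb2* thus stood at -5.14 and -4.84, and at -5.91 and -5.75 without replicate 1 of every group. With 1 CPM added to each value it stood at -2.85 and -2.97. The fold depends on low D2 values, which were 5 to 38 expected counts a library. The other 4 genes moved by less than 1.5-fold in either genotype. None of the 7 genes passed the test of KO against WT cells, which was made across all genes. Of all genes tested, 0.00566% passed it in Prol, 0% at D0 and 0% at D2.

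Plasminogen is a circulating precursor of plasmin, a serine protease that degrades fibrin and matrix proteins and activates latent growth factors and metalloproteinases. It is cut to plasmin by the tissue activator tPA (*Plat*) and by urokinase, uPA (*Plau*), and uPA is held at the cell surface by its GPI-anchored receptor uPAR (*Plaur*). Serpins are a fold family whose inhibitory members trap serine proteases in a covalent complex. PAI-2 (*Serpinb2*) and protease nexin-1 (*Serpine2*) inhibit the activators, whereas PEDF (*Serpinf1*) and the collagen chaperone HSP47 (*Serpinh1*) have the fold but do not inhibit proteases. In skeletal muscle the urokinase system is known for its part in regeneration and in the migration and fusion of cultured myoblasts.

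The cells were immortalized myoblasts that carry a p53 knockout in both genotypes. KO cells had been edited with CRISPR-Cas9 and an sgRNA against LAP2α, an isoform encoded by *Tmpo*, WT cells had received the vector without it, and both were sorted for EGFP as pools and not as single clones. Cells were sampled while proliferating in 20% fetal calf serum (Prol), at confluence (D0) and after 48 hours in 5% serum (D2), with 3 replicate libraries in each of the 6 groups. The labels do not say whether replicates were separate cultures, so that p-values measure the spread between these libraries only.

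Library totals ranged from 26437823 to 41619016 expected counts. Values are deposited CPM, read counts scaled to the size of the library, and 3 counts corresponded to 0.0651 to 0.119 CPM, a floor that covers counting error only. *Tmpo* was at 275 to 315 CPM in WT Prol and at 228 to 260 CPM in KO Prol, and the genotypes overlapped at D0 and D2. These gene-level values include the other isoforms, so that they do not check the loss of LAP2α itself. The summed level of 5 myoblast markers of 6 listed (*Pax7* was not analysed here) was 39.4 to 68.6 CPM in Prol and D0 and 377 to 880 CPM at D2. *Myf5* among them did not rise with the sum, at 20.5 to 27.4 CPM in Prol and 11.6 to 29.6 CPM at D2. *Myod1*, another of these markers, was at 0.736 to 5.88 CPM in Prol and at 47.7 to 99.7 CPM at D2. The 6 markers of differentiated muscle summed to 2.29 to 28.4 CPM before D2, to 2463 to 5048 CPM in WT D2 and to 1466 to 1866 CPM in KO D2. The 6 fibroblast markers, mostly *Col1a1*, summed to 290 to 4139 CPM before D2 and to 2044 to 13864 CPM at D2. Among the others, *Dcn* was at 0.0161 to 0.848 CPM before D2 and at 30.1 to 63.8 CPM at D2. *Dpt* was at 0.0402 to 3.15 and 53.4 to 129 CPM, and *Lum* at 0.0143 to 0.0800 and 2.48 to 8.26 CPM. The libraries before D2 and at D2 overlapped for *Pdgfra* and *Thy1*. Of 6 macrophage markers, 2 were in the table and summed to at most 8.0 CPM, 3 endothelial markers of 5 reached 2.46 CPM and 3 adipocyte markers of 4 reached 31.8 CPM, while none of 4 epithelial markers was in the table. In bulk RNA, fewer cells of a type and less RNA per cell cannot be told apart.

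Replicate 1 stood apart from replicates 2 and 3 in several of the genes described here. At D2 the 2 libraries of replicate 1 had scaling factors of 0.909 and 0.931, against 1.11 to 1.18 in the other 4, and these libraries held the highest *Plaur*, *Serpinb2* and *Serpinf1* levels. At D0 the libraries of replicate 1 held the lowest *Serpinb2* levels. *Col1a1* was at 12263 and 13453 CPM in replicate 1 at D2 and at 1797 to 3754 CPM in the others. For *Plat*, *Plaur*, *Serpinb2* and *Serpinf1* the changes are therefore also given without replicate 1 of every group, a choice made after the values were seen.

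The proximal promoters of 2 genes that were lower at D2 and of 1 that was near its Prol level are shown, as the 250 bases before the RefSeq start site on GRCm38.p6, read 5′ to 3′ on the strand of the gene. The *Serpinb2* window, chr1:107511173-107511422 on the plus strand, ends directly before the first annotated start of a gene that spans 107511423 to 107535478. The *Plaur* window is chr7:24462233-24462482 on the plus strand, before a gene that spans 24462484 to 24475968. The *Serpinh1* window is chr7:99353240-99353489 on the minus strand, before a gene that spans 99345376 to 99353239. Capitals mark matches on either strand to TATAAA (the TATA box), TGACTCA (an AP-1 site), GGGCGG (a GC box bound by Sp1) or CAGCTG (an E-box of the type that MyoD binds).
Serpinb2: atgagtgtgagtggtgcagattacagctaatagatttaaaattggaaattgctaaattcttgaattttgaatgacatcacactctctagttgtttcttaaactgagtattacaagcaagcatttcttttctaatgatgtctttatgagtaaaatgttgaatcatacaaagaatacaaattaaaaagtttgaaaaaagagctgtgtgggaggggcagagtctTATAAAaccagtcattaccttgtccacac
Plaur: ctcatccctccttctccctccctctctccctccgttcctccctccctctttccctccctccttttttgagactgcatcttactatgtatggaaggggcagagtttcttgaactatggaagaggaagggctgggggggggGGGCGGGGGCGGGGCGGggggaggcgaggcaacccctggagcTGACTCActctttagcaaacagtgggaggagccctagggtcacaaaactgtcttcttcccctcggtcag
Serpinh1: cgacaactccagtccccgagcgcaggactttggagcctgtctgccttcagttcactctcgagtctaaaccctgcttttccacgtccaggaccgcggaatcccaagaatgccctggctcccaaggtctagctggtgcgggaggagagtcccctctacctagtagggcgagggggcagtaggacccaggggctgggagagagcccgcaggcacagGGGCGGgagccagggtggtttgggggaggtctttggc
*Serpinb2* had a TATAAA 29 bases before its start and no other of these motifs, in a window of 32.4% GC. *Plaur* had a TGACTCA 69 bases before its start and 3 overlapping or adjoining GGGCGG, in a window of 59.6% GC. *Serpinh1* had 1 GGGCGG, in a window of 63.6% GC. Of all 32851 promoter windows in the table, 12.4% held TATAAA, 4.46% TGACTCA, 32.7% GGGCGG and 13% CAGCTG, and the median GC content was 52.4%. The window of *Serpinf1* (chr11, minus strand, gene from 75409769 to 75422701) held none of the 4 motifs. That of *Serpine2* (chr1, minus strand, gene from 79794197 to 79861180) held 6 GGGCGG, but its start lies 2515 bases inside the GENCODE gene. Such matches are a description of these letters and not of bound sites. *Plau* lies on chr14 from 20836660 to 20843385 and *Plat* on chr8 from 22757727 to 22782844, both on the plus strand. All 7 are protein coding, and the annotation places *Serpinb10*, not analysed here, over *Serpinb2* on the same strand.

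Levels were compared between genes as CPM per kilobase of annotated exon sequence. In WT Prol, *Serpinh1* was highest at 493 ± 15.4 CPM per kilobase (SD, n = 3), followed by *Serpinf1* at 123 ± 22.2. *Plaur* at 30.7 ± 7.01 and *Plau* at 25.9 ± 0.881 CPM per kilobase did not differ beyond their spread. *Plat* at 3.57 ± 0.936 and *Serpinb2* at 3.56 ± 1.18 CPM per kilobase were about equal, and *Serpine2* was lowest at 0.572 ± 0.0543. At D2 the order below the 2 non-inhibitory serpins had changed. *Plat* stood at 23.7 ± 9.09 CPM per kilobase in WT D2, level with *Plau* at 23.4 ± 4.06, and *Plaur* had gone to 8.18 ± 7.0. *Serpine2* at 0.699 ± 0.0146 CPM per kilobase then lay above *Serpinb2* at 0.117 ± 0.0905.

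The ratio of *Plat* to *Plau* per kilobase was computed in each library after the values had been seen. It was 0.112 to 0.183 in WT Prol and 0.151 to 0.153 in KO Prol. It was 0.174 to 0.401 in WT D0 and 0.196 to 0.311 in KO D0, and 0.867 to 1.25 in WT D2 and 0.921 to 1.46 in KO D2. Transcripts of the tissue activator were thus fewer than those of urokinase in each library before D2 and about as many at D2. With the longest transcript as the length, the D2 ratio was 1.32 to 1.91 in WT and 1.41 to 2.23 in KO.

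**Figure D1:**
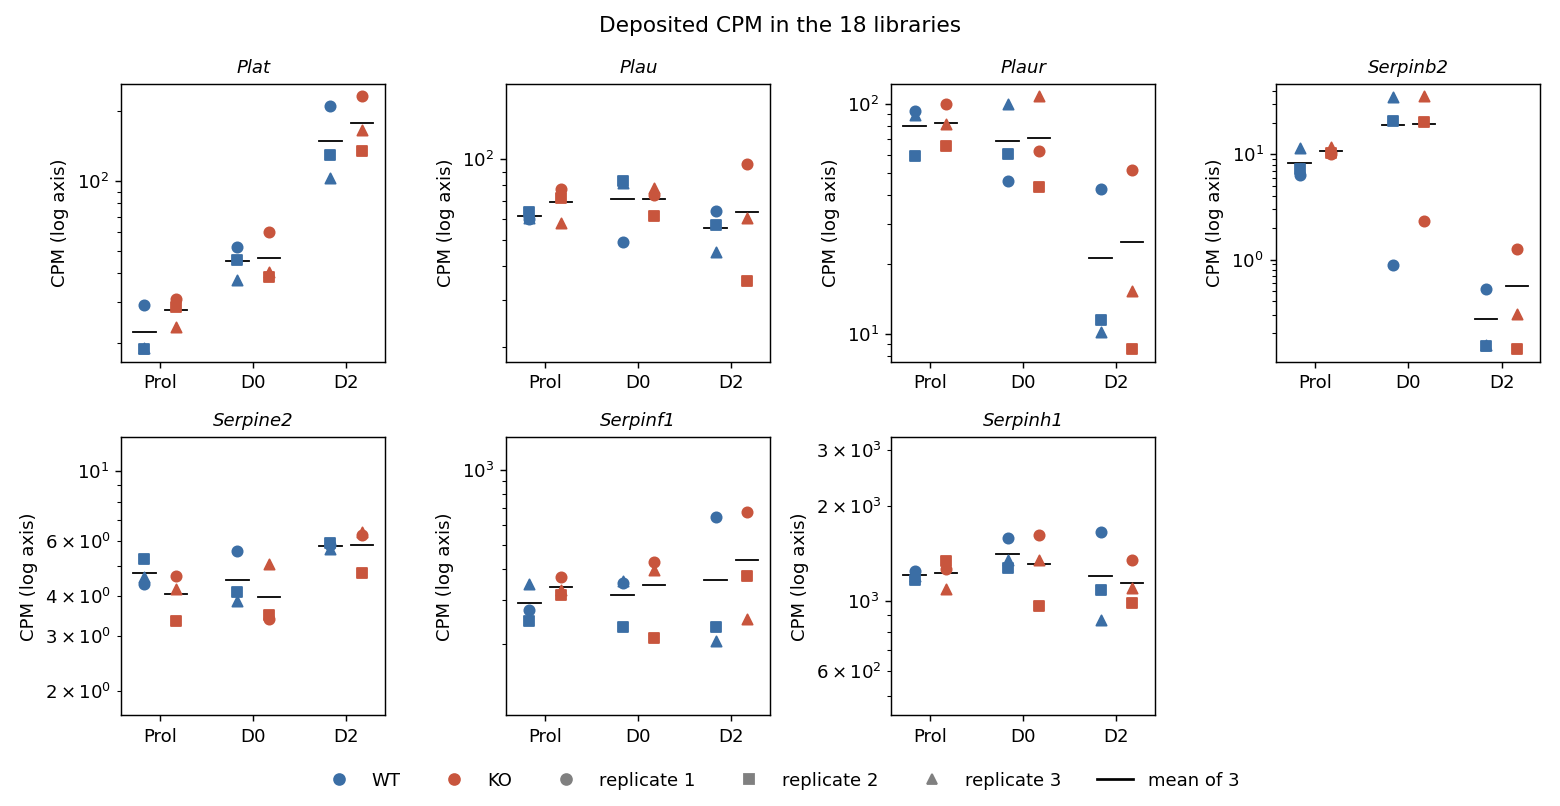
Deposited CPM (log axis) of the 7 genes in Prol, D0 and D2. Each point is a library, its shape the replicate and its color the genotype, and black bars are means of 3. *Plat* is higher at D2 in all libraries, from 103 to 232 CPM, and *Plaur* and *Serpinb2* are lower than in Prol. At D2 replicate 1 (circles) lies above the other replicates for *Plaur*, *Serpinb2* and *Serpinf1*.

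*Plat*, the tissue activator, had 29.0, 18.8 and 19 CPM in the 3 WT Prol libraries, 51.9, 45.6 and 37.4 CPM in WT D0 and 212, 130 and 103 CPM in WT D2. In KO cells it had 31.0, 28.6 and 23.4 CPM in Prol, 60.3, 38.6 and 40.3 CPM in D0 and 232, 135 and 167 CPM in D2. The 3 states did not overlap in either genotype, and replicate 1 was the highest library of each group. The log2 fold change D2/Prol was 2.70 in WT and 2.66 in KO (standard error 0.28 each), and 2.61 and 2.54 without replicate 1.

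*Plau*, which encodes urokinase, was near its Prol level at D2. It had 60.0, 63.7 and 60.2 CPM in WT Prol, 49.1, 82.9 and 81.4 CPM in WT D0 and 64.1, 56.7 and 45.1 CPM in WT D2. KO libraries had 77.7, 71.8 and 58.1 CPM in Prol, 73.5, 61.6 and 78.0 CPM in D0 and 95.7, 35.2 and 60.4 CPM in D2. The libraries of the 3 states overlapped in each genotype, and the log2 fold change D2/Prol was -0.16 in WT and -0.22 in KO (standard error 0.29). No neighbours in the order of the 6 group means differed by more than the larger of their SDs.

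*Plaur*, the urokinase receptor, had 92.8, 59.2 and 88.7 CPM in WT Prol and 99.5, 65.5 and 81.7 CPM in KO Prol. At D0 it had 46.0, 60.3 and 99.3 CPM in WT and 62.2, 43.3 and 108 CPM in KO, a range that spans that of Prol. At D2 it had 42.6, 11.5 and 10.2 CPM in WT and 51.2, 8.56 and 15.3 CPM in KO. All D2 libraries were below all Prol libraries, and those of replicate 1 were the nearest to them. In KO cells the D2 library of replicate 1 lay within the range of D0. The log2 fold change D2/Prol was -2.20 in WT and -2.10 in KO (standard error 0.59), and -2.74 and -2.67 without replicate 1. The order of group means placed Prol, D0 and D2 in this sequence in both genotypes, and of neighbours in it only WT D0 and KO D2 differed by more than the larger SD.

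*Serpinb2*, encoding the inhibitor PAI-2, had 6.33, 7.25 and 11.5 CPM in WT Prol and 10.1, 10.4 and 11.8 CPM in KO Prol. It had 0.880, 20.9 and 35.1 CPM in WT D0 and 2.33, 20.2 and 35.7 CPM in KO D0. At D2 it was down to 0.521, 0.150 and 0.155 CPM in WT and 1.26, 0.141 and 0.301 CPM in KO, which were 5 to 38 expected counts a library. Both genotypes thus had 1 low and 2 high D0 libraries, and the low one was replicate 1 in each. The log2 fold change D2/Prol was -5.14 in WT and -4.84 in KO (standard error 1.19). Without replicate 1 it was -5.91 and -5.75, and with 1 CPM added to each value it was -2.85 and -2.97.

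*Serpine2*, encoding protease nexin-1, was low throughout. It had 4.38, 5.24 and 4.60 CPM in WT Prol, 5.55, 4.13 and 3.85 CPM in WT D0 and 5.81, 5.91 and 5.67 CPM in WT D2. KO cells had 4.63, 3.35 and 4.22 CPM in Prol, 3.40, 3.49 and 5.07 CPM in D0 and 6.27, 4.75 and 6.40 CPM in D2. The D2 libraries lay above the Prol libraries in both genotypes, by a log2 fold change of 0.29 in WT and 0.51 in KO (standard error 0.23).

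*Serpinf1*, encoding PEDF, had 274, 247 and 348 CPM in WT Prol and 644, 233 and 206 CPM in WT D2. In KO cells it had 370, 314 and 327 CPM in Prol and 675, 374 and 251 CPM in D2. The high D2 values were those of replicate 1. The log2 fold change D2/Prol was 0.13 in WT and 0.25 in KO (standard error 0.42), and -0.42 and -0.064 without replicate 1. At D0 its 6 libraries ranged from 210 to 424 CPM.

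*Serpinh1*, the collagen chaperone, was at 1242, 1167 and 1203 CPM in WT Prol and at 1649, 1084 and 869 CPM in WT D2. KO cells had 1259, 1338 and 1091 CPM in Prol and 1348, 983 and 1099 CPM in D2. Its 6 D0 libraries ranged from 965 to 1622 CPM. The Prol and D2 groups overlapped, and the log2 fold change D2/Prol was -0.06 in WT and -0.11 in KO (standard error 0.27). Scaling by library totals alone moved the median of all genes in WT D2/Prol from -0.012 to 0.15, and *Serpinh1* then stood at 0.11 in WT and 0.019 in KO.

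In limma's test across the 17672 genes with sufficient counts, 30.7% of genes passed an adjusted p-value of 0.05 in WT D2/Prol, 16.6% as higher and 14.1% as lower, and 32.3% in KO D2/Prol, 17.1% as higher and 15.2% as lower. The 7 genes were chosen with these changes in view, so that no count of calls among them is read against this background. Their overlap and median, given next beside those of all genes, are descriptions for the same reason. Libraries of the 2 states did not overlap for 4 of the 7 genes in either genotype, where 43.5% of all genes tested did not overlap in WT and 47.7% in KO. The median log2 fold change of the 7 genes was -0.06 in WT and -0.11 in KO, against -0.012 and 0.024 over all genes tested. Against D0, *Plat* was higher at D2 by 1.67 in WT and 1.93 in KO on the log2 scale. *Plaur* had a change D2/D0 of -1.93 and -1.81, and of -2.84 and -2.57 without replicate 1. In replicate 1 its ratio was -0.11 in WT and -0.28 in KO on the log2 scale, against -2.34 to -3.28 in the other replicates. *Serpinb2* had -5.23 and -4.98, and -7.47 and -7.02 without replicate 1, with a ratio of -0.76 and -0.89 in replicate 1 against -6.89 to -7.82 in the others. The D2 and D0 libraries of replicate 1 were thus close in both genes.

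**Figure D2:**
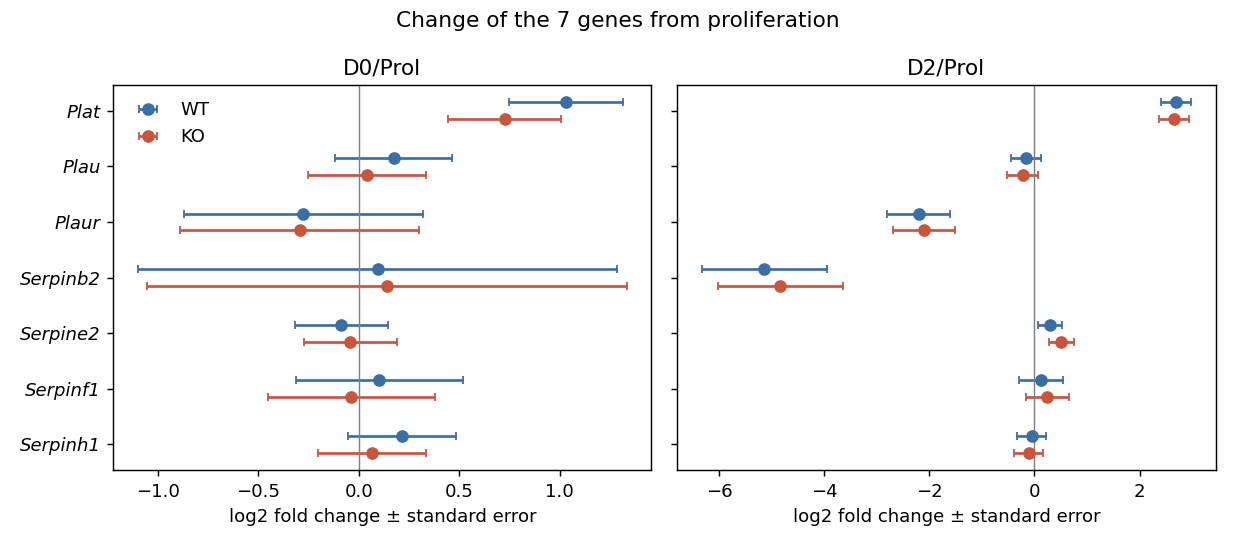
Log2 fold changes from Prol to D0 (left) and to D2 (right) of the 7 genes in WT and KO cells, with standard errors from the fit over all 18 libraries. *Plat* lies to the right of 0 in both panels, at 2.70 and 2.66 for D2, and *Plaur* and *Serpinb2* lie to the left of 0 at D2, while the other 4 genes are near 0.

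Whether confluence alone moved these genes was tested with D0 against Prol. In limma's fit without a replicate term none of the 7 genes passed the adjusted threshold. At an unadjusted p-value of 0.05 only *Plat* passed, in both genotypes. The background was 0.00566% of genes at the adjusted and 2.17% at the unadjusted threshold in WT, and 0% and 1.12% in KO. The log2 fold change of *Plat* was 1.03 (standard error 0.28) in WT, with a limma unadjusted p-value of 0.00219 and an adjusted p-value of 0.9997, and 0.73 in KO (standard error 0.28), with p-values of 0.0206 and 0.9999. In KO cells the unadjusted p-value rose to 0.0772 when Prol replicate 3, and to 0.106 when D0 replicate 1, was left out. With the replicate number as a fixed term, *Plat* passed the adjusted threshold in WT (limma adjusted p-value 0.0286) but not in KO (0.849). With it as a random term, voom weights and all deposited genes, no gene passed in either genotype. *Plat* was higher at D0 in 3 of 3 same-numbered pairs of libraries in each genotype, and the groups did not overlap. Groups did not overlap for *Serpinh1* in WT either, at 1276 to 1586 CPM in D0, where 5.92% of genes did not overlap in WT and 4.35% in KO. *Serpinb2* at D0 differed among replicates more than between states. Its log2 ratio of D0 to Prol was -2.85 in WT replicate 1 and 1.53 and 1.60 in replicates 2 and 3, and -2.12 in KO replicate 1 and 0.95 and 1.60 in the others. The fitted changes of 0.09 in WT and 0.14 in KO (standard error 1.19) average over these, and without replicate 1 they were 1.56 and 1.27.

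The comparison of KO with WT asked whether the loss of LAP2α altered these genes. In the fit of all 18 libraries without a replicate term, none of the 7 passed an adjusted or an unadjusted p-value of 0.05. This held in Prol, D0, D2 and the mean of the 3 states. The groups of the 2 genotypes overlapped for all 7 genes in each state. The adjusted p-values were all at least 0.9998. Over all genes, 0.00566% passed the adjusted threshold in Prol, 0% at D0, 0% at D2 and 0.00566% in the mean of states, and 1.11%, 1.47%, 1.96% and 2.3% passed the unadjusted one, while groups did not overlap for 4.41%, 3.02% and 6.17% of genes in Prol, D0 and D2. The size of difference that these data leave possible varied among the genes. Over the 3 states, the 95% interval of the KO/WT fold was 0.772 to 1.22 for *Serpinh1*, 0.746 to 1.10 for *Serpine2*, 0.836 to 1.37 for *Plau* and 0.917 to 1.48 for *Plat*. It was 0.819 to 1.66 for *Serpinf1* and 0.634 to 1.74 for *Plaur*, and for *Serpinb2* it extended from 0.524 to 3.97.

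*Plat* was higher in KO than in the same-numbered WT library in 8 of 9 pairs. Over the 3 states its difference on the log2 scale was 0.22 (standard error 0.16), with a limma unadjusted p-value of 0.196. Without WT D2 replicate 1 the unadjusted p-value was 0.0482 (0.32, adjusted 0.935), and without replicate 1 of every group it was 0.0376 (0.26, adjusted 0.9999) and in Prol 0.034 (0.45). Without WT D2 replicate 1, KO/WT D2 of *Plat* (0.59, unadjusted 0.0492) and of *Serpinf1* (0.87, unadjusted 0.0335) also passed the unadjusted threshold, both with a limma adjusted p-value of 0.821. With every library kept and the replicate number as a fixed term, *Plat* had a limma unadjusted p-value of 0.0218 over the 3 states (adjusted 0.758). In Prol it had 0.0402 with this term (adjusted 0.9998). *Serpinb2* and *Serpinf1* were higher in KO in 7 of 9 pairs, *Plaur* in 6, *Plau* in 5, and *Serpine2* and *Serpinh1* in 4. The change of the KO effect between Prol and D2 was tested as an interaction, and none of the 7 genes passed the adjusted or unadjusted threshold, where 0% and 0.945% of all genes did. For *Plat* this difference was -0.038 on the log2 scale, with a 95% interval from -0.885 to 0.808, and for *Plaur* it was 0.10, from -1.68 to 1.88. The markers of differentiated muscle were lower in the KO D2 libraries than in the WT D2 libraries, as given above, and their part in these comparisons was not tested.

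**Figure D3:**
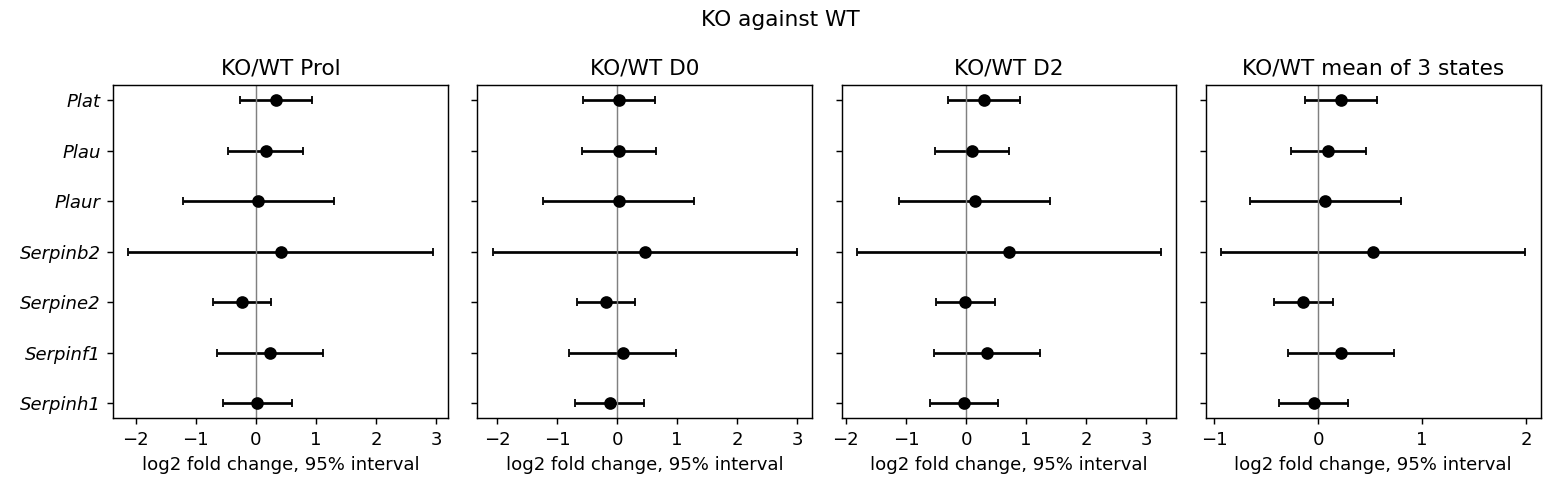
Log2 fold changes of KO against WT in Prol, D0, D2 and the mean of the 3 states for the 7 genes, with 95% intervals from limma. All 28 intervals include 0, and those of *Serpinb2* and *Plaur* are the widest.

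The other genes of the plasminogen system were read from a list of 28, of which 23 were in the table and 22 were tested. This list and those that follow were drawn up with earlier results of these data known. Their counts at D2 are therefore descriptions, given beside the shares of all genes, and not independent evidence. Plasminogen itself (*Plg*) was not analysed here. In WT D2/Prol, 9 of the 22 rose and 2 fell, and in KO D2/Prol 11 rose and 2 fell (limma, adjusted p under 0.05), where 16.6% of all genes rose and 14.1% fell in WT and 17.1% and 15.2% in KO. The list median log2 fold change was 0.75 and 0.95. Among those that rose was the clearance receptor *Vldlr* (1.09 ± 0.31 in WT and 1.36 ± 0.31 in KO, log2 fold change and standard error). The collagen receptor *Mrc2*, which associates with uPAR, rose by 1.34 and 1.48 on the log2 scale, and *Igf2r*, which binds plasminogen, by 1.82 and 1.89. *Hgf*, a growth factor that uPA can activate, rose by 1.90 and 1.63, and its receptor *Met* fell by 1.80 and 1.26. *Eno1*, a glycolytic enzyme that also binds plasminogen at the cell surface, fell by 1.34 in WT and 1.65 in KO. These genes, other than *Vtn*, *Mmp3* and *Mmp13*, were chosen after their values were seen. The KO count was 7 of 22 without KO Prol replicate 3. Single libraries also decided some calls. That of *Igf2r* was lost in WT without any 1 of 5 libraries, all but WT D2 replicate 2, at 1.28 to 2.03, and in KO without Prol replicate 2 or 3 or D2 replicate 1 or 2, at 1.37 to 2.13. That of *Hgf* was lost in WT without Prol replicate 3 or D2 replicate 2 or 3, at 1.53 to 1.67, and in KO without Prol replicate 1 or 3 or D2 replicate 2 or 3, at 1.40 to 1.58. That of *Met* in KO was lost without Prol replicate 1 or 3 or D2 replicate 2, at -1.17 to -0.97, and those of *Mrc2* (1.00) and *Vldlr* (0.74) in WT without WT D2 replicate 1.

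The 3 genes with the largest fitted change in WT were near the detection limit in Prol, so that no fold is given. *Vtn*, encoding vitronectin, which binds uPAR, had 1 expected count over the 3 WT Prol libraries and 166 over WT D2, and 1 and 45 in KO. The WT D2 total came mostly from replicate 1, at 3.68 CPM against 0.697 and 0.520 CPM in replicates 2 and 3. KO D2 libraries had 0.301 to 0.507 CPM. *Mmp3* had 2 and 183 expected counts in WT and 7 and 148 in KO, and *Mmp13* had 5 and 106 in WT and 13 and 97 in KO. Both encode metalloproteinases that plasmin can activate, and all 3 genes passed the adjusted threshold in each genotype, except *Mmp13* in KO without KO Prol replicate 3. *Mmp9*, another metalloproteinase and chosen after its values were seen, rose by 3.78 ± 0.65 in WT and 2.50 ± 0.65 in KO on the log2 scale and was at 6.26 to 47.0 CPM in WT D2 and 3.00 to 6.49 CPM in KO D2. The high WT library was replicate 1, without which the WT change was 2.84.

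None of the 22 genes passed the adjusted threshold in KO/WT D2, and 1 (*Mmp9*, -1.51 on the log2 scale) passed the unadjusted one. Without WT D2 replicate 1 this difference was -0.57, with a limma unadjusted p-value of 0.293.

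**Figure D4:**
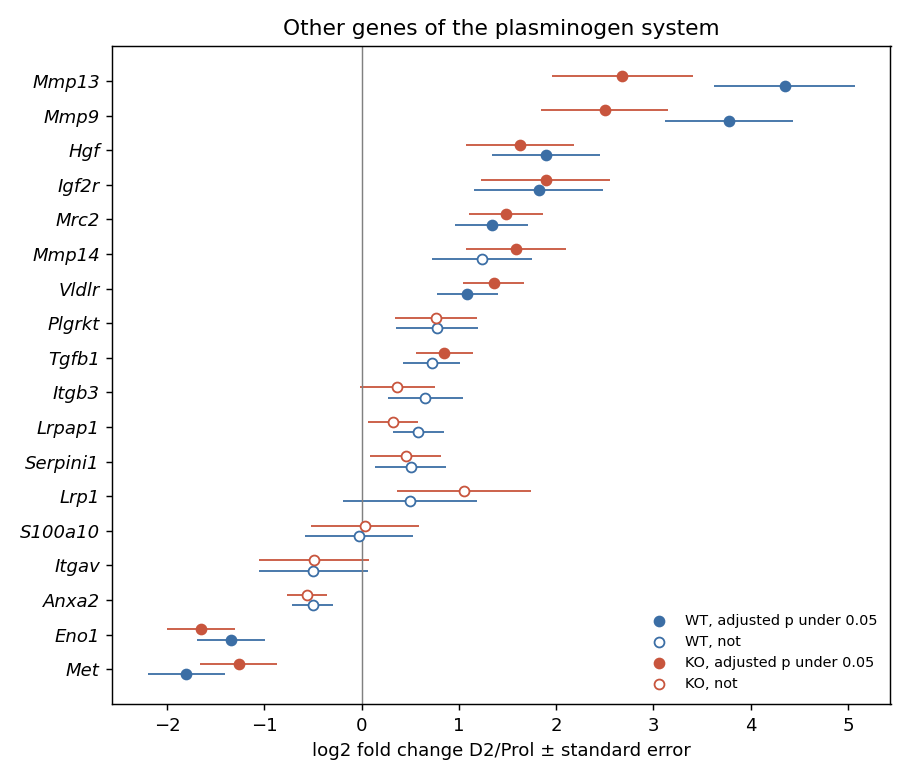
Log2 fold changes D2/Prol with standard errors of 18 other genes of the plasminogen system in WT and KO cells, sorted by the WT value. *Vtn* and *Mmp3*, which had 3 or fewer counts in each library of a Prol group, are left out. Filled points passed an adjusted p-value of 0.05, and *Met* and *Eno1* are the 2 filled genes to the left of 0.

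Of 14 genes of coagulation and thrombin signalling, which *Serpine2* also regulates, 13 were tested, and 2 rose in WT D2/Prol while 2 rose and 1 fell in KO D2/Prol. These counts compare with 30.7% of all genes called in WT and 32.3% in KO. Prothrombin (*F2*) had 0 expected counts over the WT Prol libraries and 202 over WT D2, and 2 and 97 in KO. The heparan sulfate proteoglycan *Gpc1* rose in WT by 1.22 ± 0.33 on the log2 scale and had 0.65 ± 0.33 in KO, with an adjusted p-value of 0.147. In the interaction test of D2 against Prol no gene of the list passed the adjusted threshold. Thrombomodulin (*Thbd*), chosen after its values were seen, had the smallest unadjusted p-value of the list in KO/WT D2, at 17.7 to 30.4 CPM in WT and 37.4 to 98.0 CPM in KO, with an adjusted p-value of 0.9998. Another gene of the list passed the unadjusted threshold there as lower. The list median log2 fold change was 0.42 in WT and 0.34 in KO, and the KO count of 3 genes was 1 without KO Prol replicate 1, KO Prol replicate 3 or KO D2 replicate 2.

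Among 59 other serpins, 23 were in the table and 19 were tested. In WT D2/Prol 8 rose and none fell, and in KO D2/Prol 9 rose and none fell, with a list median of 1.18 and 1.96, beside 16.6% and 17.1% of all genes that rose. *Serpina3g* had 0.118 to 0.472 CPM in WT Prol and 5.92 to 27.4 CPM in WT D2, and 0.312 to 0.816 and 2.91 to 12.5 CPM in KO. *Serpina3f* and *Serpina3i* had 0 and 1 expected counts over the WT Prol libraries and 123 and 81.6 over WT D2. The *Serpina3* genes are near-identical copies that share reads, so that their separate values are uncertain. *Serpinb1a*, an inhibitor of leukocyte proteases singled out after its values were seen, rose from 1.06 to 2.15 CPM in WT Prol to 29.4 to 52.0 CPM in WT D2, a log2 fold change of 4.69 ± 0.51 and of 4.29 ± 0.51 in KO. Of the same clade B as *Serpinb2*, *Serpinb8* rose by 1.18 in WT and 1.29 in KO on the log2 scale. This call was lost without WT Prol or WT D2 replicate 3 (1.07 and 1.10) and in KO without Prol replicate 3 or D2 replicate 2 (1.05 and 1.03).

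*Serpinh1* was read beside the genes of collagen biosynthesis it works with. All 24 listed genes were tested, and 6 rose in WT D2/Prol and 8 in KO D2/Prol while none fell, with a list median of 0.48 and 0.50 and with 16.6% and 17.1% of all genes rising. *Col3a1* rose by 3.16 ± 0.46 in WT and 3.37 ± 0.46 in KO on the log2 scale, from 462 ± 59.7 CPM (SD, n = 3) in WT Prol to 4371 ± 1956 CPM in WT D2. The KO count was 4 without KO Prol replicate 2, KO Prol replicate 3 or KO D2 replicate 1, and 5 without KO Prol replicate 1. The procollagen proteases *Adamts2* (2.20 and 2.43) and *Bmp1* (1.59 and 1.51) rose as well. *Col1a1*, chosen after its values were seen, had 2.36 ± 1.04 in WT and 2.59 ± 1.04 in KO with limma adjusted p-values of 0.098 and 0.0676, and its replicates differed as described above. *Serpinh1* is also under heat shock control, and 10 heat shock genes were listed and tested. Of these, 3 fell in WT and 4 in KO and none rose, with a list median of -0.66 and -0.76, where 14.1% and 15.2% of all genes fell. Without WT D2 replicate 1 the WT count was 5. *Hspd1* fell by 1.98 and 1.93, *Hsp90aa1* by 1.65 and 1.66 and *Hsph1* by 1.55 and 1.51 on the log2 scale. *Serpinh1*, at -0.06 and -0.11, lay between the medians of both lists. No gene of these 2 lists or of the other serpins passed the adjusted threshold in KO/WT D2 in limma, and none passed the unadjusted one.

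The genes whose profile was most like that of each of the 7 were found by the root mean square difference of centred log2 CPM over the 18 libraries, which share their depth and scaling. For *Plat* these were *Aldh6a1* (0.315) and *Olfml3* (0.343), which went from 12.1 CPM in WT Prol to 75.7 CPM in WT D2 in the case of *Olfml3*. For *Plaur* they were *Rnd1* (0.193) and *Gprc5a* (0.221), at 25.3 and 32.7 CPM in WT Prol and 7.38 and 8.91 CPM in WT D2. Only the 9488 genes with a mean of at least 10 CPM were compared, and genes of lower level were not. None of those compared came close to *Serpinb2*, the nearest being *Pcolce2* (1.36) and *Edn1* (1.43). The nearest were *Sgms1* (0.187) and *Emp1* (0.203) for *Plau*, *Pigk* (0.191) and *Zbtb43* (0.195) for *Serpine2*, *Ero1l* (0.170) and *Litaf* (0.183) for *Serpinf1*, and *Ccni* (0.118) and *Pdia4* (0.119) for *Serpinh1*, all 4 of which had small changes over the states.

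Within 100 kb of the 7 genes, 28 protein-coding genes were annotated and 23 were tested. In WT D2/Prol 6 of them rose and 5 fell, and in KO D2/Prol 6 rose and 5 fell, where 30.7% and 32.3% of all genes were called in either direction. Around *Plat*, *Ap3m2* at 4.51 kb rose by 0.59 in WT and 0.58 in KO on the log2 scale, while *Ikbkb* and *Kat6a* had -0.034 and -0.27 in WT and did not pass. Around *Plaur*, the potassium channel *Kcnn4* (-1.76), *Xrcc1* (-0.97), *Zfp428* (-0.96) and *Smg9* (-0.73) fell in WT, *Irgq* rose by 0.98 and *Cadm4*, the nearest at 6.06 kb, had 0.023. *Serpinb8*, at 54.5 kb from *Serpinb2*, moved in the opposite direction to it. *Camk2g* and *Vcl* beside *Plau* had -0.13 and 0.27 in WT and did not pass. Next to *Serpinf1*, *Rpa1* fell by 1.62 and *Wdr81* and *Tlcd2* rose by 1.18 and 0.80 in WT, and *Smyd4*, *Prpf8*, *Rilp* and *Scarf1* did not pass. Next to *Serpine2*, *Wdfy1* rose by 1.01 in WT and *Mrpl44* had -0.11. *Map6* and *Gdpd5* beside *Serpinh1* had -0.59 and 0.33 in WT and did not pass there. The genes called in KO were the same except for *Gdpd5*, which rose by 0.73 (limma adjusted p-value 0.0456), and *Tlcd2*, which did not pass (0.40).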

How the data were processed

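RNA was measured in 18 libraries of poly(A) RNA, 3 in each of 6 groups of WT and KO myoblasts, with groups taken from the labels. Per the study's methods, the authors trimmed strand-specific reads (cutadapt), aligned them to the GRCm38 transcriptome (NextGenMap), estimated counts with RSEM, summed them to genes, removed genes with low counts and scaled with edgeR's TMM and limma-voom. The deposited values are CPM of 19153 genes with decimal commas, written by the authors as 1 file a library and not pooled. They fitted the sum of an expected count and 0.5 divided by a TMM-scaled total, so that totals of 26437823 to 41619016 expected counts (median 32939620) could be recovered. The study's fit had the sequencing lane as a block, which the labels do not give.

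Log2 CPM was tested with limma 3.58.1 in R 4.3.3, in 1 fit of the 6 groups with a variance trend, on 17672 genes with over 5 expected counts in the 3 libraries of at least 1 group. P-values were adjusted over all of these by Benjamini-Hochberg at 0.05, and the test was checked on simulated data. There it called 38 of 100 genes changed 2-fold, 77 of 100 changed 4-fold and 10 unchanged genes. Most 2-fold changes were thus missed. The changed genes were drawn from those with a mean over 100 expected counts and were changed in WT D2 only. These rates therefore do not cover genes with fewer counts. The simulated libraries were drawn independently, without an effect shared by those of the same replicate number. Fold changes in D2/Prol and D2/D0 of the 7 genes are descriptions, since the genes had been listed with these values in view. The members and lists were chosen with earlier results of these data known. The genes named by rule were the 7 members, *Tmpo* and *Plg*, in each list the 3 genes called in WT D2/Prol with the largest absolute log2 fold change, the 2 genes nearest in profile to each member among 9488 with a mean of at least 10 CPM, and the tested neighbours within 100 kb. Other genes named in the lists are marked as chosen after their values were seen. Some listed genes count in their lists but are not reported here. Of the identifiers, 19072 had a symbol. Positions and exon lengths are from GENCODE on GRCm38 and promoter sequences from RefSeq on GRCm38.p6. The sequences of *Plau* and *Plat* were not analysed here. Plots were made in Python 3.11.15 (matplotlib 3.10.9). Alternatives were voom weights, other scalings, no filter, a pseudocount, a replicate block, only the groups compared, criteria of fold and unadjusted p and each library left out.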

Additional observations from a re-analysis of the deposited data

How the results depend on the processing

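None of the 7 genes was called in KO/WT under a pseudocount of 1 CPM, voom weights, no filter, scaling by median of ratios or by library totals, a replicate block or a fit of only the groups compared. Library totals moved the median of all genes in KO D2/Prol from 0.024 to 0.16. The coagulation count in KO D2/Prol (3) was 5 under library totals and 5 with only the groups compared. By an unadjusted p under 0.05, a 1.5-fold change and 10 CPM, the other serpins had 4 in WT and 5 in KO D2/Prol, and the plasminogen and coagulation lists had 1 each in KO/WT D2, where a pseudocount of 1 CPM also gave 1 for coagulation. The study's methods state a log2 fold change over 1.5 instead, added here after the data were seen, and by it WT and KO D2/Prol had 4 and 6 for plasminogen, 0 and 0 for coagulation and 3 and 3 for the other serpins, KO D2/Prol had 4 for collagen and KO/WT D2 had 1 for plasminogen. That pseudocount reversed the KO effect of *Serpinb2* at D2 minus that in Prol, from 0.30 to -0.12. With the longest transcript, levels per kilobase in WT Prol were 1.40 for *Serpine2*, 5.51 for *Plat*, 40.0 for *Plaur*, 158 for *Serpinf1* and 529 for *Serpinh1*. Profile likeness was identical under library totals, because a factor shared by all genes of a library cancels in it. The cause of these changes was not tested.

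The replicate number was not taken to pair libraries. The deviations of same-numbered libraries correlated at -0.036 to 0.65, over 0.1 in 40 of 45 pairs, and 16 of 18 libraries correlated best with their own number. A replicate block was fitted as a fixed term, and as a random term with voom weights and all deposited genes, and pairs of list counts are given in this order. With the fixed term, calls over all genes in D2/Prol were 4311 higher and 4120 lower in WT and 4349 and 4231 in KO, against 2940 and 2484 and 3027 and 2679 without it. Of the 7 genes, *Plat* was called in WT D0/Prol with the block (1 of 7, limma adjusted p-value 0.0286, and 0.203 with the random term). In KO D0/Prol its limma unadjusted p-value was 0.000202 with the fixed term and 0.0206 without it. The adjusted p-value there was 0.849 with the fixed term, so that it was not called. *Plat* also passed the unadjusted threshold with the fixed term in KO/WT Prol (limma unadjusted p-value 0.0402, adjusted 0.9998) and in the mean of the 3 states (0.0218, adjusted 0.758), and in the latter with the random term (0.0458). The D2/Prol counts in WT were 18 and 17 for the plasminogen list, 4 and 5 for coagulation, 12 and 12 for collagen and 6 and 6 for heat shock, and those in KO were 7 and 7 for coagulation, 16 and 14 for collagen and 8 and 8 for heat shock.

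Without replicate 1 of every group, the direction was reversed, among the comparisons tested, in WT D0/Prol of *Serpinf1* (-0.025) and of *Plaur* (0.094), KO D0/Prol of *Serpine2* (0.16) and of *Serpinh1* (-0.084), KO/WT D0 of *Serpinb2* (-0.012), of *Serpine2* (0.077), of *Plau* (-0.24), of *Plaur* (-0.18) and of *Plat* (-0.064), KO/WT D2 of *Serpinh1* (0.099) and of *Plau* (-0.13), the mean KO/WT of the 3 states of *Plau* (-0.11) and of *Plaur* (-0.028) and the KO effect at D2 minus that in Prol of *Serpinh1* (0.071). Among those only described, *Serpinf1* reversed in WT D2/Prol (-0.42), KO D2/Prol (-0.064) and WT D2/D0 (-0.40). The coagulation count in WT was then 1 and the heat shock count 5. With 1 library at a time left out, list counts ranged from 7 to 12 for plasminogen, 1 to 4 for coagulation and 4 to 7 for collagen in KO D2/Prol and from 3 to 5 for heat shock in WT. Some differences that did not pass the threshold took either sign as libraries were left out, here as the lowest to the highest log2 value. In WT D0/Prol this held for *Serpinb2* (-0.92 to 1.74), *Serpine2* (-0.24 to 0.018) and *Serpinf1* (-0.0038 to 0.30). In KO D0/Prol this held for *Plau* (-0.079 to 0.14), *Plaur* (-0.64 to 0.014), *Serpinb2* (-0.65 to 1.32), *Serpine2* (-0.23 to 0.062), *Serpinf1* (-0.22 to 0.28) and *Serpinh1* (-0.10 to 0.27). In KO/WT Prol this held for *Plaur* (-0.16 to 0.20) and *Serpinh1* (-0.038 to 0.11). In KO/WT D0 this held for *Plat* (-0.17 to 0.15), *Plau* (-0.22 to 0.16), *Plaur* (-0.33 to 0.33), *Serpinb2* (-1.19 to 1.64), *Serpinf1* (-0.11 to 0.41) and *Serpinh1* (-0.30 to 0.079). In KO/WT D2 this held for *Plau* (-0.25 to 0.47), *Plaur* (-0.58 to 0.80), *Serpinb2* (-0.16 to 1.42), *Serpine2* (-0.086 to 0.13), *Serpinf1* (-0.032 to 0.87) and *Serpinh1* (-0.24 to 0.22). In the mean KO/WT of the 3 states this held for *Plau* (-0.018 to 0.22), *Plaur* (-0.17 to 0.29), *Serpinb2* (-0.021 to 0.92) and *Serpinh1* (-0.11 to 0.041). In the KO effect at D2 minus that in Prol this held for *Plat* (-0.27 to 0.25), *Plau* (-0.41 to 0.31), *Plaur* (-0.62 to 0.76), *Serpinb2* (-0.57 to 1.01), *Serpinf1* (-0.26 to 0.64) and *Serpinh1* (-0.26 to 0.20). The D2 values that took the other sign were those of *Serpinf1* in WT D2/D0 without D0 replicate 2 (-0.17) or D2 replicate 1 (-0.49), KO D2/D0 without the same (-0.038 and -0.096), WT and KO D2/Prol without D2 replicate 1 (-0.39 and -0.13), of *Serpinh1* in WT D2/Prol without D2 replicate 3 (0.15) and of *Plau* in KO D2/Prol and D2/D0 without D2 replicate 2 (0.15 and 0.11). At 3 libraries a group, and at 5 to 38 expected counts a library for *Serpinb2* at D2, differences of these sizes could not be resolved.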
